A study of Arabidopsis thaliana with 4 samples.

Results

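The serine carboxypeptidase-like (SCPL) genes of Arabidopsis thaliana were examined in wild-type plants and in vip3 mutants. They were taken as the genes for which the array's annotation names a probe set after a single SCPL gene, a rule that uses no measured value, although the family was picked with earlier results of these data known. This gave 29 genes, read by 29 of the 22746 probe sets tested on the Affymetrix ATH1 array, while the RefSeq gene table lists 51 SCPL genes. Each member had 1 probe set, and none of these carried a suffix that marks probes shared between transcripts. The other 22 genes of the family were not analysed here. Among them are SNG1, SCPL9, SCPL10, SCPL17, SCPL19 and BRS1, the members with the best-known functions.

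The study compared 2 arrays from wild type (WT) with 2 arrays from plants carrying vip3, named vip3-1 in the methods and described by the study as a null allele of a gene for a subunit of the Paf1 complex (Paf1C), a conserved factor that travels with RNA polymerase II. RNA came from all aerial tissue of soil-grown plants that were 14 d old in both genotypes, and every replicate pooled 3 samples that had been derived independently. The spread between arrays is therefore that between pools. The natural accession of the plants was not given in the sources read here, and VIP3 itself was not analysed here, so the genotype labels were not checked against it. In such bulk tissue, fewer cells of a type and less RNA per cell cannot be told apart.

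SCPL proteins share the fold and the catalytic triad of serine, aspartate and histidine of the carboxypeptidases, which remove single residues from the C-terminus of peptides and proteins. Some members have lost that activity and are acyltransferases instead. SNG1 transfers a sinapoyl group from sinapoylglucose to malate, which gives the leaf sinapoylmalate, a screen against ultraviolet light, and SCPL19 makes sinapoylcholine in seeds. BRS1 is a secreted carboxypeptidase that came to notice because its overexpression suppresses a weak brassinosteroid receptor mutant. SCPL49 is annotated as a carboxypeptidase Y, the type known as a vacuolar enzyme in budding yeast. For most of the other members a substrate has not been established, and no enzyme role is given for them here.

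Values are signals of the MAS5 software on a linear scale, each array having been scaled to a common target. A signal cannot be compared between probe sets as an amount of transcript, so each gene was compared with itself between arrays, and sums over marker genes serve only to set arrays side by side. Differences are log2 fold changes, vip3 minus WT, with the standard error (SE) of limma, and a gene is called at a Benjamini-Hochberg adjusted p under 0.05 over all 22746 probe sets. Median signals of the arrays were between 171.4 and 174.7, and log2 signals correlated across probe sets at r = 0.953 between the WT arrays, at 0.95 between the vip3 arrays and at 0.941 to 0.946 between genotypes. Probe sets are not independent replicates. The leaf markers RCA, LHCB4.1, LHCB4.2 and PSAE-1, the 4 of 10 listed that were measured, had summed signals of 79117.5 and 75427 in WT against 75168.7 and 82662 in vip3. None was called, although LHCB4.2 had lower and LHCB4.1 higher signals on both vip3 arrays (limma adjusted p = 0.22 and 0.56).

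The SCPL genes fell into a group with clear signals and a group with low signals, with no member between them. For 13 genes the mean log2 signal was above the median over all probe sets, which corresponds to a signal of 170.9. Their signals on single arrays were between 168.4 and 2171.1. The other 16 genes had signals between 1.9 and 84.6 on every array. The gap between the groups is visible in the plot of the signals on each array.

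**Figure D1:**
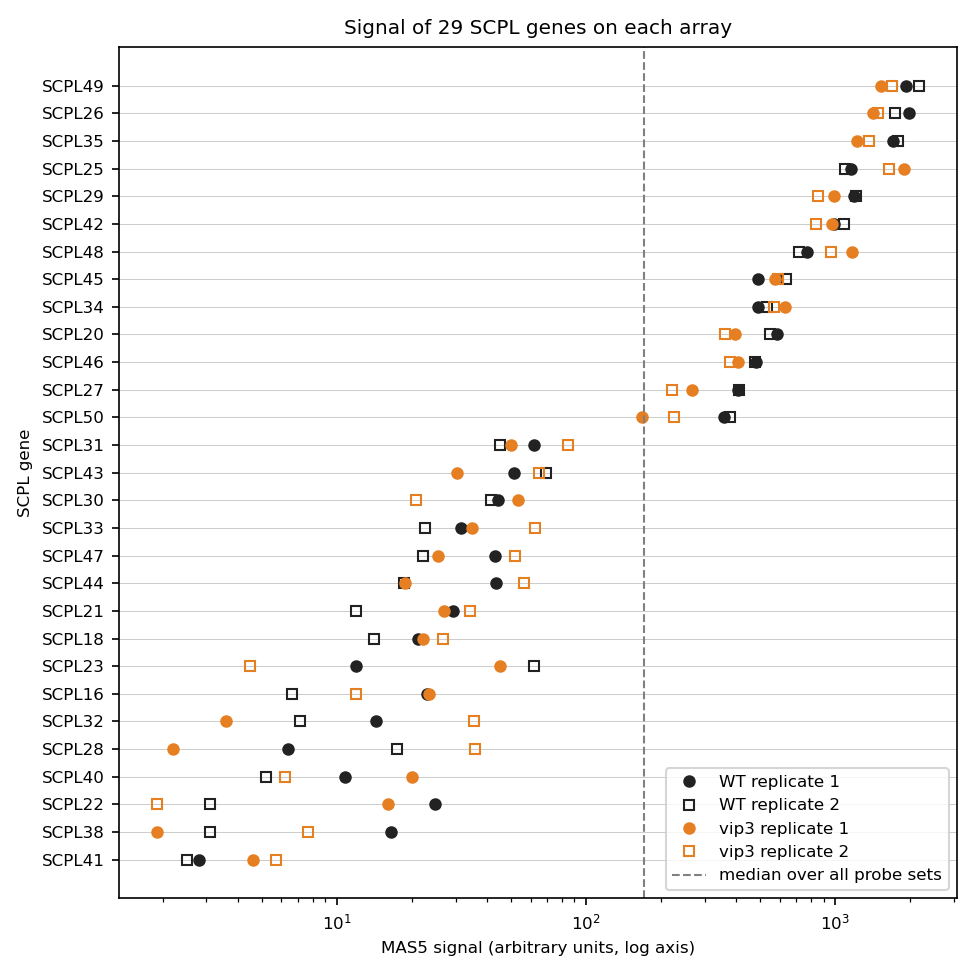
MAS5 signal of each of the 29 SCPL genes (rows, ordered by mean log2 signal) on the 4 arrays, on a log axis. Black marks are WT and orange marks vip3, filled circles replicate 1 and open squares replicate 2, and the dashed line is the median over all probe sets at 170.9; 13 genes lie around or above it with closely spaced marks and 16 lie below 85 with scattered marks.

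The replicates of the 2 groups differed in precision. The arrays of 1 genotype differed by a median of 0.13 on the log2 scale over 26 pairs of signals from the 13 brighter genes, and by 0.43 at most. For the 16 dim genes the median over 32 pairs was 1.08, and the largest difference was 4.03. The SE of the log2 fold change was 0.08 to 0.17 for the brighter genes and 0.44 to 1.45 for the dim genes. Comparisons of the genotypes were therefore much more precise for the 13 brighter genes.

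Several SCPL genes with clear signals differed between the genotypes, and more of them were lower than higher in vip3. In limma 9 of the 29 genes were called (31%), where 9.8% of all probe sets were called. Of these, 7 were lower in vip3 (5.07% of all probe sets were) and 2 were higher (4.73% of all probe sets). All 9 belonged to the 13 brighter genes (69.2%), and a bright probe set is more readily called in general. Among all probe sets at or above the median signal 17.8% were called, 9.41% as lower and 8.38% as higher. None of the 9 changes reached 2-fold, so that on these MAS5 signals 0 SCPL genes met the thresholds of the study's methods. These are an unadjusted p under 0.001 with a 2-fold change, which 1.56% of all probe sets met, and 5 SCPL genes had an unadjusted limma p under 0.001. The study applied its thresholds to values from other software, GCRMA, so its own calls for these genes cannot be read from this count. The median log2 fold change of the 13 brighter genes was -0.35, and that of all probe sets at or above the median signal was -0.01.

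The calls depended on all 4 arrays and on how the variance was modelled. With a prior variance that was constant over signal levels, no SCPL gene and 0 probe sets in all were called. An unadjusted p under 0.05 was then found for 7 of the 29 genes and for 16.7% of all probe sets. These 7 were SCPL20, SCPL25, SCPL27, SCPL35, SCPL48 and SCPL50 of the called genes and the dim gene SCPL41, while SCPL26, SCPL29 and SCPL49 were not among them. Without WT replicate 1, WT replicate 2, vip3 replicate 1 or vip3 replicate 2, the number of called SCPL genes was 2, 3, 0 and 2, out of 1130, 1332, 442 and 450 called probe sets. The direction of all 9 changes was the same in each of these fits, but it could not have been otherwise. For these 9 genes the genotypes did not overlap, so dropping 1 array cannot reverse the sign. The prior variance does not enter the fold change.

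**Figure D2:**
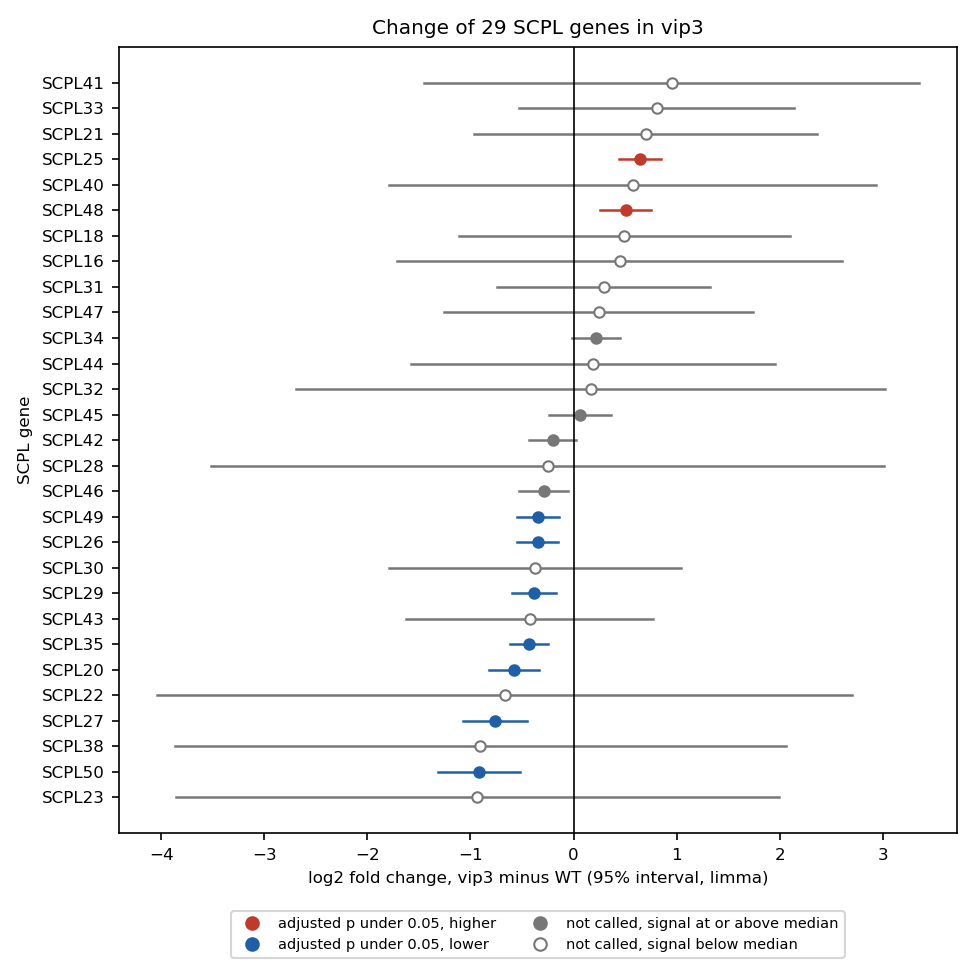
Log2 fold change (vip3 minus WT) of the 29 SCPL genes with its 95% interval from limma, ordered by size. Blue marks are the 7 genes called lower, red marks the 2 called higher and grey marks the 20 not called, and open marks are genes with a signal below the median, whose intervals all include 0.

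SCPL50 (AT1G15000) showed the lowest log2 fold change of the brighter genes. Its signals were 356.8 and 380.5 in WT against 168.4 and 226.4 in vip3, so that both vip3 arrays lay well below both WT arrays. The mean fell from 368.6 ± 16.8 (SD, n = 2) to 197.4 ± 41, with a log2 fold change of -0.92 ± 0.17 SE and a limma adjusted p = 0.017. On the linear scale this fall amounted to 47%. Its adjusted p was 0.055, 0.074 and 0.095 without WT replicate 1, WT replicate 2 and vip3 replicate 1, and just under 0.05 without vip3 replicate 2.

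SCPL27 (AT3G07990) behaved much like SCPL50. It had signals of 409 and 413.1 in WT against 265.6 and 221.7 in vip3. The WT arrays were nearly equal, and the vip3 arrays lay well below them, with a log2 fold change of -0.76 ± 0.13 SE (limma adjusted p = 0.014). Dropping each array in turn gave log2 fold changes of -0.89 to -0.63 and adjusted p-values of 0.058 to 0.095.

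SCPL20 (AT4G12910) had the next largest fall among the called genes. Its signals were 583.3 and 547.2 in WT against 398.2 and 361.4 in vip3, without overlap. The log2 fold change was -0.57 ± 0.1 SE, a fall by 32.9% (limma adjusted p = 0.015). SCPL20 was still called without WT replicate 2 (adjusted p = 0.043), but not without WT replicate 1 (0.085), vip3 replicate 1 (0.077) or vip3 replicate 2 (0.11).

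The other 4 genes called lower were brighter and changed less. SCPL35 (AT5G08260) had signals of 1706.2 and 1795.5 in WT against 1230.5 and 1364.5 in vip3. Its log2 fold change was -0.43 ± 0.08 SE (limma adjusted p = 0.016), and it stayed called without WT replicate 1, at an adjusted p of 0.049, but had 0.079, 0.11 and 0.064 without WT replicate 2, vip3 replicate 1 and vip3 replicate 2. SCPL29 (AT4G30810) had 1193.2 and 1214.7 in WT against 992.5 and 858.2 in vip3. In both genes each vip3 array was below each WT array, and the difference of SCPL29 was -0.38 ± 0.09 SE (limma adjusted p = 0.039). The adjusted p of SCPL29 rose to 0.069 to 0.17 on dropping each array in turn, and was 0.056 with log2 of the signal plus 16.

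SCPL26 (AT2G35780) had signals of 1984.7 and 1733.4 in WT against 1427 and 1485.9 in vip3. Its WT arrays differed more from each other than its vip3 arrays did, and the groups did not overlap. The log2 fold change was -0.35 ± 0.08 SE (limma adjusted p = 0.044). SCPL49 (AT3G10410), the carboxypeptidase Y gene, had 1933.5 and 2171.1 in WT against 1535.4 and 1691.5 in vip3. This fall by 21.3% was the smallest of the 7 (log2 fold change -0.35 ± 0.09 SE, limma adjusted p = 0.048). Both genes were close to the threshold. SCPL26 had an adjusted p of 0.062 with log2 of the signal plus 16 and of 0.055 with quantile normalization, and SCPL49 had 0.068 and 0.062. SCPL26 remained called without WT replicate 2 (adjusted p = 0.039) but had 0.23, 0.2 and 0.17 without WT replicate 1, vip3 replicate 1 and vip3 replicate 2, and SCPL49 had between 0.063 and 0.22 without any 1 array.

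SCPL25 (AT3G02110) rose in vip3 and had the lowest adjusted p of the family. Its signals were 1162.7 and 1092.2 in WT against 1885.2 and 1652.2 in vip3, so that the lower vip3 array was well above the higher WT array. The mean rose from 1127 ± 49.9 (SD, n = 2) to 1769 ± 165, a 1.57-fold change with a log2 fold change of 0.65 ± 0.09 SE (limma adjusted p = 0.0046). SCPL25 passed when WT replicate 1, WT replicate 2 or vip3 replicate 2 was left out, while no other member passed in more than 1 of these fits, and it had an adjusted p of 0.06 without vip3 replicate 1.

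SCPL48 (AT3G45010) was the other gene called higher. It had signals of 774.3 and 718.6 in WT against 1166.7 and 959.8 in vip3. The vip3 arrays were further apart than the WT arrays but did not overlap with them, and the change was 1.42-fold (log2 fold change 0.5 ± 0.11 SE, limma adjusted p = 0.028). Its adjusted p was 0.058, 0.1, 0.15 and 0.06 without WT replicate 1, WT replicate 2, vip3 replicate 1 and vip3 replicate 2.

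**Figure D3:**
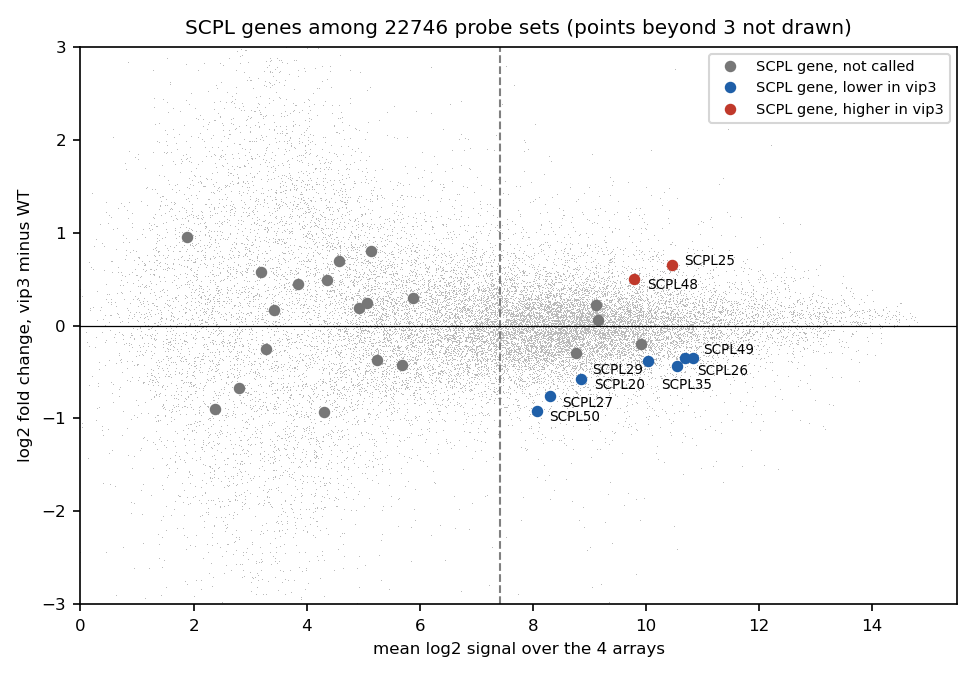
Log2 fold change (vip3 minus WT) against the mean log2 signal over the 4 arrays for all probe sets (grey dots) and the 29 SCPL genes (large marks; blue, called lower; red, called higher; grey, not called). The dashed line is the median level. The 9 called genes lie to its right, where the cloud of all probe sets is narrow, with changes from -0.92 to 0.65.

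The remaining 4 brighter genes were not called. SCPL46 (AT2G33530) had signals of 483.1 and 476.8 in WT against 406.4 and 378.7 in vip3, and a log2 fold change of -0.29 with a 95% interval of -0.53 to -0.05 (limma unadjusted p = 0.022, adjusted p = 0.13). SCPL42 (AT5G42240) had 991 and 1084.2 in WT against 973.4 and 836.1 in vip3. For both genes each vip3 array was below each WT array, but the interval of SCPL42, -0.43 to 0.03, included 0.

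SCPL34 (AT5G23210) had signals of 492.4 and 535.6 in WT against 627.8 and 570.4 in vip3, with an interval of the log2 fold change from -0.01 to 0.45. SCPL45 (AT1G28110) had 491.4 and 633 in WT against 573.5 and 589.6 in vip3. It was the only one of the 13 brighter genes whose genotypes overlapped. Its interval, from -0.24 to 0.36, included changes in either direction.

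Over the 13 brighter genes, 9 had a negative and 4 a positive log2 fold change. The genotypes did not overlap for 12 of them (92.3%), 9 lower and 3 higher in vip3, where 64.9% of all probe sets at or above the median signal did not overlap. Relative to each gene's mean, the median of the 13 genes was 0.15 and 0.17 above it on the WT arrays and -0.09 and -0.15 on the vip3 arrays on the log2 scale. On this median the 2 arrays of each genotype lay closer to each other than to those of the other genotype. This largely restates that 9 of the 13 genes were lower on both vip3 arrays, and it adds no support. In a further comparison chosen after the values were seen, the median log2 fold change of the 13 genes was between -0.32 and -0.28 on dropping each array in turn. It was -0.34 both with log2 of the signal plus 16 and with quantile normalization. The remaining settings cannot alter the fold changes of these genes, so their median of -0.35 was fixed. A negative change was found for 9 or 10 genes in all fits. On dropping an array only SCPL45, whose genotypes overlapped, could change its sign.

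Over all 29 genes no such shift was resolved. The median log2 fold change was -0.2, against 0 over all probe sets, and it turned to 0.06 with log2 of the signal plus 16, to 0.16 without WT replicate 1 and to 0.08 without vip3 replicate 1. The genotypes did not overlap for 15 of the 29 genes (51.7%), close to the 52.2% of all probe sets.

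**Figure D4:**
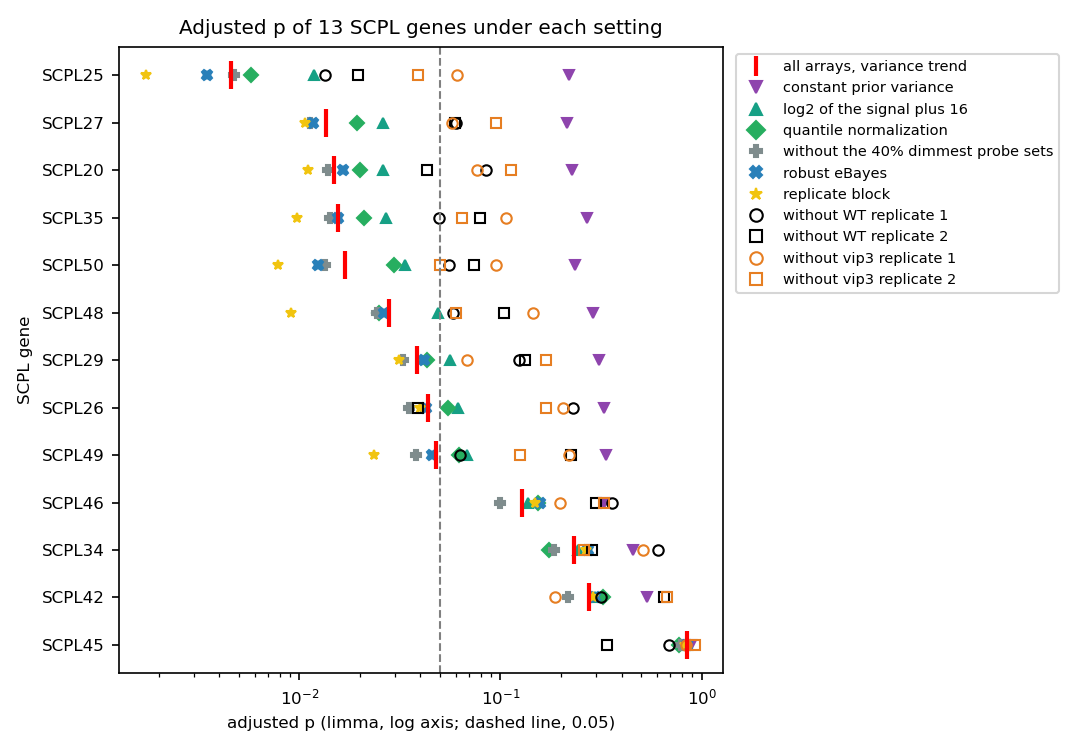
Limma adjusted p (log axis) of the 13 brighter SCPL genes with all arrays and the variance trend (red bars) and under 10 other settings (other marks); the dashed line is 0.05. The 9 called genes lie left of the line with all arrays, every gene lies right of it with a constant prior variance, and SCPL25 alone lies left of it in 3 of the 4 fits that leave out an array.

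None of the 16 dim genes was called in limma, and with the variance trend 0 had an unadjusted p under 0.05. Few dim probe sets were called in general. Of the 2229 called over the whole array, 2023 were at or above the median signal. Their log2 fold changes were between -0.94 and 0.95, as large as those of the called genes, but with intervals that all included 0. SCPL31 (AT1G11080) and SCPL43 (AT2G12480) were the brightest of them. SCPL31 had signals of 62.1 and 45.4 in WT against 50.1 and 84.6 in vip3, and SCPL43 had 51.5 and 69 in WT against 30.3 and 65 in vip3. The arrays of the genotypes overlapped in both, and the intervals of the log2 fold change, from -0.74 to 1.33 and from -1.63 to 0.77, included changes of 1.5-fold in either direction.

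Among the dim genes 3 had higher signals on both vip3 arrays and 0 had lower signals on both, where the genotypes did not overlap for 39.5% of all probe sets below the median signal. SCPL33 (AT3G17180) had 31.6 and 22.6 in WT against 34.9 and 62.5 in vip3. SCPL18 (AT1G33540) had 21.2 and 14.1 in WT against 22.2 and 26.7 in vip3. SCPL41 (AT5G42230), which has been linked to membrane lipid metabolism, had only 2.8 and 2.5 in WT against 4.6 and 5.7 in vip3. The limma adjusted p-values were 0.47, 0.74 and 0.65. The replicates of SCPL41 lay close together, and with a constant prior variance its unadjusted limma p was 0.01 and its adjusted p 0.21.

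The other 11 dim genes were SCPL16, SCPL21, SCPL22, SCPL23, SCPL28, SCPL30, SCPL32, SCPL38, SCPL40, SCPL44 and SCPL47. The genotypes overlapped for all of them, with limma adjusted p-values of 0.63 to 0.96. SCPL23 (AT2G24010) shows the scatter. It had signals of 12 and 62.1 in WT against 45.3 and 4.5 in vip3, and a log2 fold change of -0.94 with an interval of -3.86 to 1.99. SCPL30 (AT4G15100), with 44.5 and 41.7 in WT against 53.2 and 20.8 in vip3, was steady in WT but not in vip3.

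Some members lie next to each other in the genome. In the order of protein-coding genes of the RefSeq table, SCPL22 and SCPL23 are direct neighbours, as are SCPL28 and SCPL26. SCPL22 (AT2G24000) had signals of 24.8 and 3.1 in WT against 16 and 1.9 in vip3 and was as poorly resolved as SCPL23. SCPL28 (AT2G35770) had 6.4 and 17.5 in WT against 2.2 and 36 in vip3, while its neighbour SCPL26 was bright and was called lower. SCPL16 (AT3G12220), with 23 and 6.6 in WT against 23.5 and 12 in vip3, adjoins SCPL14 and SCPL15, which were not analysed here. SCPL41 and SCPL42 have consecutive locus numbers, and neither was called. Each of these groups held at most 1 of the brighter genes, and no dim gene was called. None could therefore hold more than 1 called gene, and whether neighbours change together cannot be read from them.

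Pathways that meet the SCPL acyltransferases were covered by lists of genes, of which few members had a probe set named for them alone. Beside the counts below, 9.8% of all probe sets were called, and 17.8% of those at or above the median signal. No list was tested as a set. Of 23 genes for sinapate esters and their phenylpropanoid precursors 5 were measured, and in limma 2 were lower, 1 was higher and 2 were not called. The lower ones, ALDH2C4 and HCT, had signals above the median. ALDH2C4, which oxidises sinapaldehyde and coniferaldehyde to the acids, fell from signals of 1800.8 and 1807.8 to 1276.4 and 1177 (log2 fold change -0.56 ± 0.07 SE, limma adjusted p = 0.0043). It passed without WT replicate 1, WT replicate 2 or vip3 replicate 1 and had an adjusted p of 0.058 without vip3 replicate 2. HCT, which joins hydroxycinnamoyl groups to shikimate, had 2975.8 and 2815.3 in WT against 2434.7 and 2339.3 in vip3 (-0.28 ± 0.07 SE, adjusted p = 0.048) and was lost without any 1 array, at adjusted p-values between 0.12 and 0.26, and with log2 of the signal plus 16 (0.057).

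UGT84A1, UGT84A3 and UGT84A4 encode glucosyltransferases that form glucose esters of hydroxycinnamic acids, the activated donors that SCPL acyltransferases use. UGT84A1 had signals of 5.5 and 2.7 in WT against 48.2 and 46 in vip3 (limma adjusted p = 0.035). Both vip3 arrays were far above both WT arrays, but the WT signals lie at the bottom of the range, and the log2 fold change was 3.61 ± 0.82 SE on the plain log2 scale but 1.65 where 16 was added to each signal. It was lost in all 4 fits with 1 array fewer, where the adjusted p was 0.059, 0.1, 0.17 and 0.17 without WT replicate 1, WT replicate 2, vip3 replicate 1 and vip3 replicate 2. UGT84A3 and UGT84A4 had adjusted p-values of 0.15 and 0.83.

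Of 18 genes for flavonoids and anthocyanins, some of which are acylated with sinapoyl groups by SCPL enzymes, 3 were measured. UF3GT, an anthocyanin glycosyltransferase gene, was lower (log2 fold change -1.23 ± 0.14 SE, limma adjusted p = 0.0028; 0.051 and 0.057 without vip3 replicate 1 and vip3 replicate 2), and UGT78D2 and DFR were not called. Of 12 genes for acyltransferases of the unrelated BAHD family 6 were measured, and HCT was the only one called. Of 12 genes for other vacuolar proteases 5 were measured and none was called. The brightest of these were APA1, an aspartic protease gene, with 7800.3 and 7547.2 in WT against 8907.4 and 9224.3 in vip3 (adjusted p = 0.091), and GAMMA-VPE, a vacuolar processing enzyme gene, with 4184.2 and 3983.9 in WT against 4378.8 and 4120.5 in vip3 (0.71). ALPHA-VPE, BETA-VPE and DELTA-VPE had adjusted p-values of 0.2, 0.28 and 0.94. Of 20 genes of brassinosteroid signalling only BRL1 was measured (adjusted p = 0.28), and of 22 glucosinolate genes AOP3 and UGT74B1 (0.99 and 0.21).

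Markers of other tissues were looked at beside these results. Of 6 root markers 3 were measured, PYK10, EXPA7 and EXPA18, in plants of which only aerial tissue was harvested. Their summed signals were 4867.9 and 5788.3 in WT against 2741.1 and 3327.1 in vip3, nearly all of it from PYK10, at 4738.8 and 5739 in WT against 2687.2 and 3228.2 in vip3. PYK10, which codes for a root beta-glucosidase, was lower in vip3 (log2 fold change -0.82 ± 0.12 SE, limma adjusted p = 0.0062; 0.086 and 0.053 without vip3 replicate 1 and vip3 replicate 2), while the root-hair genes EXPA7 and EXPA18 had signals between 9.1 and 71.6 and were not called. EXPA7 and EXPA18 had log2 fold changes of opposite sign, -0.49 and 0.6. The part of the lower PYK10 signal in the SCPL differences was not tested. Of 8 flower markers only AMS was measured, at signals of 17.9 and 4.1 in WT against 3.5 and 9.7 in vip3, and of 11 seed markers 0 were.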

How the data were processed

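Total RNA from the 4 samples was hybridised to 1 ATH1 array each. The authors deposited linear signal intensities from MAS5. This software corrects background and mismatch hybridisation, summarises each probe set and scales every array to a common target. Low values therefore carry large relative errors. GCRMA values, from which the study made its own calls, and detection calls played no part.

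After removal of 64 control probe sets, log2 signals of the other 22746 were fitted in limma 3.58.1 (lmFit, eBayes) under R 4.3.3. The study's methods name limma; a variance trend was added. The moderated tests had 7.5 degrees of freedom. The script was first tested on simulated data. With 2 arrays against 2, an exact two-sided permutation test of single genes cannot go below p = 0.33 and was not used, and the number of arrays limits the precision.

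Gene names were taken from the platform annotation in GEO and the RefSeq table of TAIR10.1. One gene symbol was given for 13513 probe sets, several for 503, and none for 8730, which are unnamed here. Coordinates are left out, since no source read here gives the build of that annotation, and sequences were not used here. The listed name CHI belongs to a chitinase gene in RefSeq and was dropped. List sizes are the names that resolved to 1 RefSeq gene.

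The members and lists were chosen with earlier results of these data known. All members are accounted for; full values were planned for members called, for the 6 with the highest mean signal and for the 4 with the highest and lowest fold changes at a mean signal of at least 50, besides 6 genes listed for their known roles (SNG1, SCPL9, SCPL10, SCPL17, SCPL19 and BRS1), which were not analysed here, and the other values were added to show the spread. Of other lists, genes called and up to 4 others with the highest signal were eligible. Alternatives were a constant prior variance, log2 of the signal plus 16, quantile normalization, removal of the 40% dimmest probe sets, robust eBayes, a replicate block, removal of each array and the study's thresholds.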

Additional observations from a re-analysis of the deposited data

How the results depend on the processing

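With a constant prior variance 0 SCPL genes, 0 probe sets and 0 members of the pathway lists were called, against 9, 2229 and 4 with the variance trend; 3798 probe sets and 7 SCPL genes then had an unadjusted p under 0.05. The study's thresholds, applied here to the MAS5 signals, gave 0 SCPL genes and 354 probe sets. Dropping each array in turn gave 0 to 3 SCPL genes, 442 to 1332 probe sets and 0 to 2 list members, with a median log2 fold change of the SCPL genes between -0.24 and 0.16. It turned positive without WT replicate 1 (0.16), without vip3 replicate 1 (0.08) and where 16 was added to each signal (0.058). That median was -0.35 over the members at or above the median signal and likewise without the 40% dimmest probe sets, which left only these 13 members. SCPL31, which was not called, was at -0.084 without vip3 replicate 2 and at up to 0.67 without vip3 replicate 1. No other gene given in full by the planned rule changed its direction. The genotypes did not overlap for any of those genes, so dropping an array could not reverse them. Outside that rule SCPL45 was at 0.06 with all arrays and at -0.12 without WT replicate 1, and several dim genes changed direction as well. The replicate block gave 9 SCPL genes, the same ones, and 2339 probe sets, and HCT was no longer called (adjusted p = 0.053); array deviations had a correlation of -0.044 between same-numbered arrays, which were not treated as pairs. No SCPL gene was called under an alternative that was not called with all arrays. The dim members had low signals and an SE of the log2 fold change of 0.44 to 1.45, which limits what can be detected for them. The cause of the differences between the genotypes was not tested.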

Other observations

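A pair of probe sets that each list an SCPL gene together with a second gene stayed out of the comparisons. The first lists SCPL39 with AT3G56540, and the second lists SCPL36 with SCPL37. Signals were 9.6 and 2 in WT and 10 and 2.6 in vip3 for the first probe set. For the second they were 1.6 and 2.2 in WT and 1.1 and 1.9 in vip3. All of these signals are far below the median over all probe sets, and the genotypes overlapped in both.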
